A study of Homo sapiens with 20 samples.

Results

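The genes described here are 10 heat shock proteins and co-chaperones: HSPA1A, HSPA1B, HSPA8, HSPA5 and HSPH1 of the HSP70 and HSP110 families, HSP90AA1, the small heat shock protein HSPB1, the chaperonin HSPD1, and the HSP70 partners DNAJB1 and BAG3. They were selected on measured values, since HSPA1A and HSPA1B rose with the miR-1 mimic in these same arrays, so their levels in that comparison are a description and carry no test. All probes annotated to the 10 genes were taken, 16 on each of the array versions, of 48803 probes in the miR-4728-3p experiment and 47323 in the miR-1 experiment. Where a gene has several probes, the brightest tested one stands for it. Together the 10 genes are part of 11820 genes tested in the miR-4728-3p experiment and of 11899 in the miR-1 experiment.

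The cells were MCF 10A, an immortalized human breast epithelial line, transfected with a miRNA mimic (a synthetic double-stranded RNA that stands in for the mature miRNA) or a control with a lipid reagent. One experiment compared 6 arrays with the hsa-miR-4728-3p mimic against 6 arrays with a control siRNA, described as non-targeting. The other compared 4 arrays with the hsa-miR-1-3p mimic against 4 arrays with a non-targeting control. All groups thus received a transfected oligonucleotide and lipid, and cells without either were not analysed here. A dose of 100 nM is given by the labels for all samples, whereas the study's methods also name a lower dose, and a second kind of control, of the length of the customized mimic, appears in both. The text of the study places RNA collection at 32 hours after transfection. The methods speak of biological replicates of 1 cell line. They place the miR-1 experiment on a later version of the Illumina bead array than the labels do. The deposited values likewise hold the experiments on separate array platforms.

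Heat shock proteins bind unfolded or partly folded proteins and keep them from aggregating. HSP70 proteins do so in cycles of ATP binding and hydrolysis that J-domain proteins such as DNAJB1 start and nucleotide exchange factors such as BAG3 and HSPH1 end. When unfolded proteins build up, the transcription factor HSF1 is released from chaperones, forms trimers and binds heat shock elements, inverted repeats of the unit GAA, in the promoters of HSPA1A, HSPA1B, DNAJB1, HSPB1 and others. HSPA8 is the constitutive HSP70 of the cytosol. HSPA5 is its counterpart in the endoplasmic reticulum and is induced by the unfolded protein response, not by HSF1.

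The mature sequences of the transfected miRNAs are shown to identify the treatments, from RefSeq on GRCh38.p14, 5′ to 3′ with the seed (bases 2 to 8) in capitals. They share no seed. The gene of miR-4728 lies at chr17:39726537-39726561 (plus strand, the mature arm), and one of the genes of miR-1 at chr20:62554351-62554372 (plus strand, the mature arm).
hsa-miR-4728-3p: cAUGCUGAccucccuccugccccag
hsa-miR-1-3p: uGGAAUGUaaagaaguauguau

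Values below are log2 intensities after background correction and quantile normalization within each experiment. A difference of 1 on this scale is a doubling of the corrected intensity. The experiments were normalized apart and are never set against each other by a test. Raw median intensities per array were 101 to 135 in the miR-4728-3p experiment and 92 to 121 in the miR-1 experiment. Of the 6 epithelial markers listed, 4 had a probe named in the annotation used here (KRT5, KRT14, CDH1 and EPCAM). These 4 were above the filter in both experiments, with means of 9.95 to 12.61 and of 9.86 to 11.71. KRT17 and TP63 had no named probe, so their expression was not measured here. None of the 5 markers listed for fibroblasts and muscle was above it. Of those of blood and endothelium, 1 of 4 (CD68) and 1 of 3 (PECAM1) were above it. CD68 was higher with the miR-4728-3p mimic, and KRT14 and CDH1 were among the genes called with miR-1, and their part in the results below was not tested. The arrays measure whole cultures, so a change in every cell and a change in a share of the cells cannot be told apart.

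HSPA1A and HSPA1B encode the stress-inducible HSP70 of the cytosol. The genes lie next to each other on chromosome 6, at chr6:31815543-31817942 and chr6:31827738-31830254 on the plus strand, and their products are almost the same protein. The 120 bases before their start sites are shown because the members that rose with miR-1 and those that did not can be compared there, with a pair of inverted GAA units in capitals. Other members that carry the pair within these 120 bases follow. HSPB1, which rose with miR-1, and HSPD1, which did not, carry it further upstream and are not shown. The sequences run 5′ to 3′ on the strand of the gene.
HSPA1A, chr6:31815423-31815542, plus strand: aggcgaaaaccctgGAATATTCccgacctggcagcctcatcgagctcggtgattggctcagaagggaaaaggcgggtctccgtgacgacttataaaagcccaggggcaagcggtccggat
HSPA1B, chr6:31827618-31827737, plus strand: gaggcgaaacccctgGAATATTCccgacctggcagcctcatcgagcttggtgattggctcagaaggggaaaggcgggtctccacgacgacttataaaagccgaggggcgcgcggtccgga
DNAJB1, chr19:14518398-14518517, minus strand: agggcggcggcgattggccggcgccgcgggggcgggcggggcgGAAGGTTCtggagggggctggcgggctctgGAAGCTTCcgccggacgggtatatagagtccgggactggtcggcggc
HSPA8, chr11:123062137-123062256, minus strand: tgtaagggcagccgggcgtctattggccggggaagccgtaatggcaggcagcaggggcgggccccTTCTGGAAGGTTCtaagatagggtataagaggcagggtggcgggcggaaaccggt
HSP90AA1, chr14:102087045-102087164, minus strand: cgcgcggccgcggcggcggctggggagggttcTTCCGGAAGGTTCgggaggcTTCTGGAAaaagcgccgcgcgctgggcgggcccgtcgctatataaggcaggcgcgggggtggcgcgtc

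The pair searched was GAANNTTC or TTCNNGAA, each its own reverse complement, so that both strands are covered. Where units alternate in a row of 3 (GAANNTTCNNGAA or TTCNNGAANNTTC, each the reverse complement of the other), 2 overlapping pairs are counted. In the 250 bases before each start site, at least 1 window of 7 of the 10 members held a pair, and at least 1 window of 3 held a row of 3. Over all 27305 genes with a promoter window these shares were 14% and 0.557%. HSPA1A and HSPA1B each held 1 pair, which begins 106 and 105 bases before the start, and over these 250 bases the promoters were 93.6% identical. DNAJB1 held 2 pairs and HSPB1 held 1, at 182 bases before its start. HSPA8 held 4 pairs in 2 rows of 3, HSP90AA1 held 3 pairs with 1 row, and HSPD1 held 3 pairs with 2 rows. BAG3, HSPH1 and HSPA5 held none in these windows. Pairs were thus present in members that rose with miR-1 (HSPA1A, HSPA1B, DNAJB1, HSPB1) and in members whose arrays overlapped (HSPA8, HSP90AA1, HSPD1). They were absent from BAG3, whose miR-1 arrays were also all above their controls, and from HSPH1 and HSPA5, whose arrays overlapped. The match is a description of letters in a window.

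In the miR-1 experiment the HSPA1A probe read 9.69, 9.90, 9.19 and 9.15 in controls 1 to 4, and 10.92, 10.24, 10.60 and 11.20 in mimic arrays 1 to 4. All mimic arrays were above all controls, and the mimic and control means were 10.74 and 9.48. The difference was 1.26 (SE 0.19, n = 4 against 4), a 2.39-fold higher corrected intensity. HSPA1B read 9.35, 9.96, 9.35 and 9.26 in the controls and 11.04, 10.18, 10.85 and 10.98 with the mimic. Its groups were also apart, with a difference of 1.28 (SE 0.18), 2.43-fold. Mimic array 2 was the lowest of its group and control array 2 the highest of its group for both genes, and the gap between them was 0.33 for HSPA1A and 0.22 for HSPA1B. Leaving out each array in turn gave differences of 1.10 to 1.43 for HSPA1A and of 1.19 to 1.47 for HSPA1B.

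With the miR-4728-3p mimic HSPA1B passed the test and HSPA1A did not. HSPA1B read from 11.62 to 11.92 (median 11.78) in the controls and from 11.91 to 12.30 (median 12.15) with the mimic. The groups overlapped only where mimic array 3, at 11.91, lay below control array 4, at 11.92. The difference was 0.37 (SE 0.10, n = 6 against 6, 95% interval 0.17 to 0.57), 1.29-fold, with an adjusted p of 0.0195 by limma over all probes tested. The call ended when mimic array 2, mimic array 5, control array 3 or control array 5 was left out, with adjusted p-values of 0.0101 to 0.0521 over all 12 such fits. HSPA1A read from 12.20 to 12.63 (median 12.42) in the controls and from 12.42 to 12.72 (median 12.60) with the mimic. These ranges overlapped, and the difference of 0.17 (SE 0.10, 95% interval -0.03 to 0.37) had an adjusted p of 0.423. As a single value, with no correction, the same difference had a p of 0.0913 by limma and an exact two-sided permutation p of 0.0476. The smallest permutation p this design allows is 0.00216, and the permutation p was over 0.05 in 9 of 12 fits without an array. Whether the effects of the mimics on these genes differ was not tested.

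**Figure D1:**
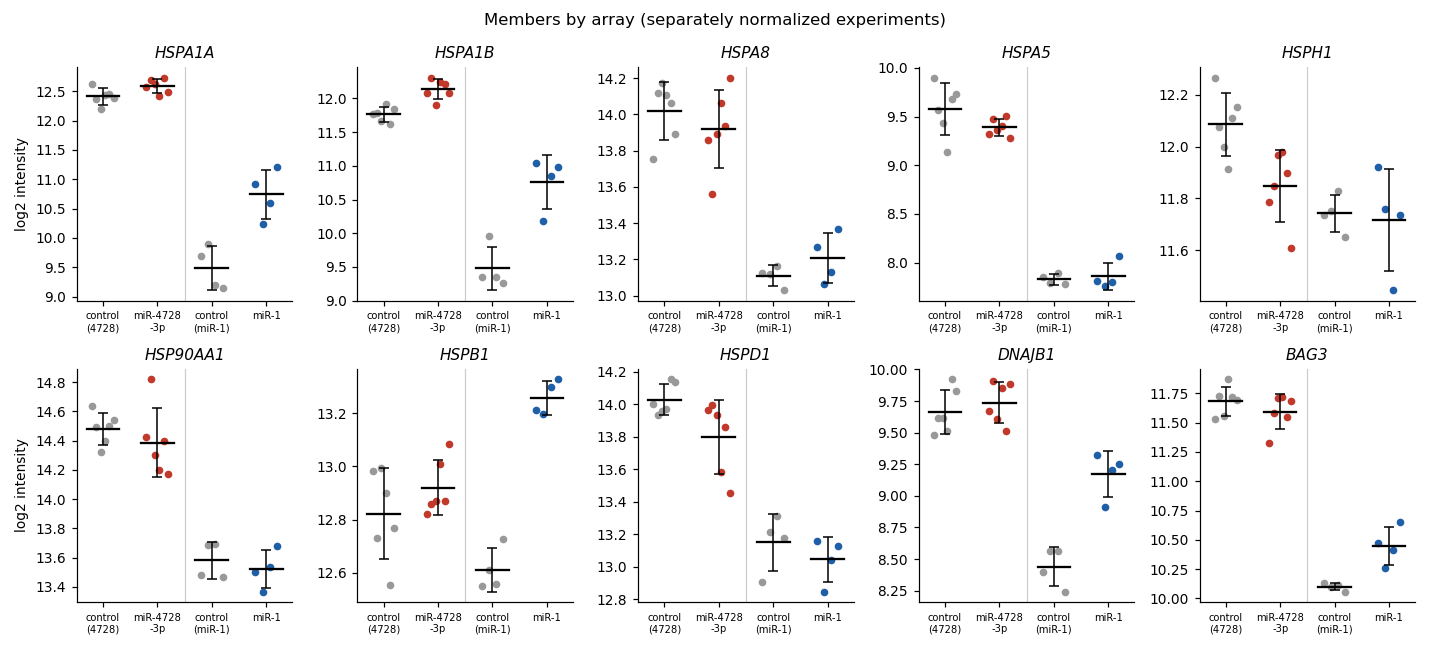
Log2 intensity (y axis, a range of its own in each panel) of the 10 members on every array. Points are arrays, grey for controls, red for the miR-4728-3p mimic (6 against 6) and blue for the miR-1 mimic (4 against 4), the horizontal line is the group mean and the bar 1 SD. HSPA1A, HSPA1B, HSPB1, DNAJB1 and BAG3 have all miR-1 arrays above their controls, with HSPA1A at 10.24 to 11.20 against 9.15 to 9.90. Experiments were normalized separately, so levels left and right of the grey line are not compared.

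Whether the transcripts of HSPA1A and HSPA1B, which are near-identical, also bind the probe of the other gene was not tested, as no probe sequence was used here. As a description, the deviations of the arrays from their group means had a Pearson r of 0.84 between the probes over the 8 arrays of the miR-1 experiment. Over the 12 arrays of the miR-4728-3p experiment r was 0.16. The arrays share their normalization. Within groups, arrays high for HSPA1A were also high for HSPA1B in the miR-1 experiment, and less so in the other.

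**Figure D2:**
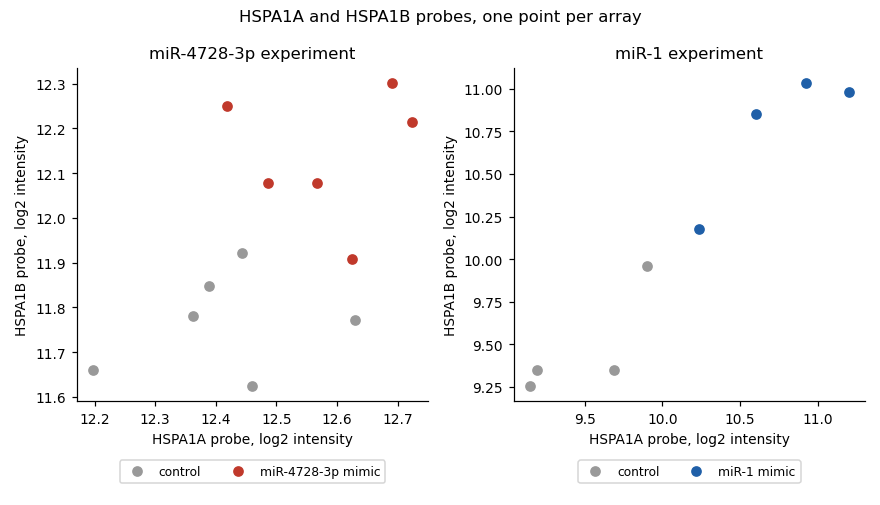
Log2 intensity of the HSPA1A probe (x axis) against the HSPA1B probe (y axis), 1 point per array, in the miR-4728-3p experiment (left) and the miR-1 experiment (right). Controls are grey. The blue miR-1 arrays lie above and right of their controls, with the closest approach between mimic array 2 (10.24 and 10.18) and control array 2 (9.90 and 9.96), while the red miR-4728-3p arrays other than array 3 (11.91) lie above all their controls on the y axis, and the groups overlap on the x axis.

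By the same measure, the genes whose array-to-array deviations were most like those of HSPA1A were ZNF696 (r = 0.98), ALKBH5 (0.97), LUZP1 (0.97), CBX2 (0.97) and PIGP (0.97) in the miR-1 experiment, among 11898 genes. HSPA1B ranked 145, BAG3 326 (r = 0.77), HSPA8 378 (0.75) and DNAJB1 723 (0.67), while HSPB1 ranked 5490 (0.06). In the miR-4728-3p experiment they were KTI12 (0.95), KIAA1143 (0.92), ALDOC (0.91), SP110 (0.90) and AKAP8L (0.89), among 11819 genes. There HSPA1B ranked 4383 and HSPA8 had an r of -0.70. No gene was among the first 5 in both experiments, and with 8 and 12 arrays that share their normalization these values are a description.

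HSPB1, the small heat shock protein HSP27 that holds unfolded proteins without using ATP and binds actin, lies at chr7:76302673-76304292. In the miR-1 experiment its controls read 12.55, 12.61, 12.56 and 12.73 and its mimic arrays 13.21, 13.20, 13.30 and 13.33. The groups were apart by more than the range of either, and the difference was 0.65 (SE 0.08), 1.57-fold. With the miR-4728-3p mimic it read 12.82 to 13.08 (median 12.87) against 12.56 to 13.00 (median 12.83). The difference of 0.10 (SE 0.10, 95% interval -0.11 to 0.30) did not pass the test, with an adjusted p of 0.728 by limma.

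DNAJB1, the heat-inducible HSP40 that delivers unfolded proteins to HSP70, lies at chr19:14514769-14560391. Its controls in the miR-1 experiment read 8.40, 8.56, 8.56 and 8.24 and its mimic arrays 9.32, 8.91, 9.21 and 9.25. The lowest mimic array, again array 2, was above the highest control, and the difference was 0.73 (SE 0.10), 1.66-fold. With the miR-4728-3p mimic it read 9.51 to 9.91 (median 9.76) against 9.48 to 9.92 (median 9.62), nearly the same range. The difference there was 0.07 (SE 0.11, 95% interval -0.15 to 0.29, adjusted p 0.824 by limma).

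BAG3 is a nucleotide exchange factor that links HSP70 to HSPB8 and to autophagy of damaged proteins, and lies at chr10:119651380-119677819. Its miR-1 controls were close to each other, at 10.13, 10.10, 10.11 and 10.06, and its mimic arrays read 10.47, 10.26, 10.41 and 10.66. The groups did not overlap, and the difference was 0.35 (SE 0.09), 1.28-fold. With the miR-4728-3p mimic it read 11.32 to 11.72 (median 11.63) against 11.53 to 11.87 (median 11.71). That difference was -0.09 (SE 0.10, 95% interval -0.29 to 0.12, adjusted p 0.758 by limma).

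HSPA8, HSPH1, HSP90AA1, HSPD1 and HSPA5 overlapped between mimic and control in the miR-1 experiment. HSPA8 (chr11:123057489-123062462) read 13.13, 13.12, 13.16 and 13.03 in the controls and 13.27, 13.06, 13.13 and 13.37 with miR-1, a difference of 0.10 (SE 0.08), and its second probe gave 0.15 (SE 0.11). Its mimic arrays 1 and 4 were above all controls and arrays 2 and 3 among them. HSPH1, the HSP110 that exchanges the nucleotide of HSP70 and helps it to dissolve aggregates (chr13:31134973-31162388), differed by -0.03 (SE 0.10). HSP90AA1, the inducible HSP90 of the cytosol (chr14:102080742-102139749), differed by -0.06 (SE 0.09) on its leading probe and by 0.02 and -0.03 on its other probes. HSPD1, the mitochondrial chaperonin HSP60 (chr2:197486584-197500274), differed by -0.11 (SE 0.10), and its other 3 probes gave -0.05, 0.01 and 0.09. HSPA5 (chr9:125234853-125241343) differed by 0.03 (SE 0.08), from 7.78 to 7.89 in the controls and from 7.76 to 8.07 with miR-1. Each of these members had at least 1 miR-1 array inside the range of its controls.

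With the miR-4728-3p mimic none of these 5 members passed the test. HSPH1 read 11.61 to 11.98 (median 11.87) against 11.91 to 12.26 (median 12.09), and the difference was -0.24 (SE 0.10, 95% interval -0.44 to -0.04, adjusted p 0.193 by limma). HSPD1 read 13.45 to 14.00 (median 13.90) against 13.94 to 14.15 (median 13.99), a difference of -0.23 (SE 0.11, 95% interval -0.45 to -0.01, adjusted p 0.283 by limma). Mimic arrays 4 and 6, at 13.58 and 13.45, were the lowest of that group. The HSPD1 probes next in brightness gave -0.24 and -0.14. The dimmest, with a difference of 0.09, was below the filter and not tested. HSPA5 differed by -0.18 (95% interval -0.42 to 0.05, adjusted p 0.471 by limma), HSPA8 by -0.10 (95% interval -0.33 to 0.13, adjusted p 0.753) and HSP90AA1 by -0.10 (95% interval -0.32 to 0.13, adjusted p 0.762). The HSP90AA1 probes did not share a sign, since the other ones gave 0.03 and 0.25 (adjusted p 0.964 and 0.159).

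**Figure D3:**
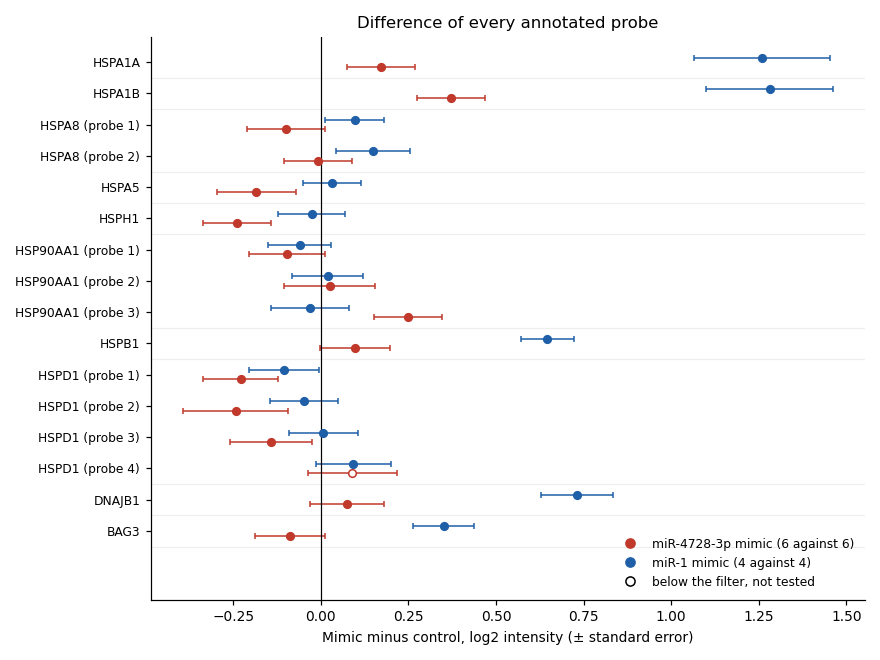
Mimic minus control in log2 intensity (x axis) of all 16 probes of the 10 members (y axis, probes of a gene ordered by mean), with bars of 1 standard error, red for miR-4728-3p and blue for miR-1. The HSPA1A and HSPA1B probes reach 1.26 and 1.28 with miR-1, DNAJB1 0.73 and HSPB1 0.65, and the open point is the HSPD1 probe that lay below the filter in the miR-4728-3p experiment.

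The miR-1 comparison chose the members, so their counts in it are given as a description and nothing is read from them. In the list of all genes past the threshold, which held 1.45% of genes as higher and 1.24% as lower with miR-1, 4 of the 10 members stood as higher (HSPA1A, HSPA1B, HSPB1 and DNAJB1) and 0 as lower. All mimic arrays were above all controls in 5 of 10, beside 5.02% of all genes. With miR-4728-3p, 1 of 10 (HSPA1B) was called higher beside 3.94% of all genes, and 0 were called lower beside 3.8%. At an unadjusted p under 0.05, 1 was higher and 2 were lower (HSPH1 and HSPD1), beside 8.1% and 11.2% of all genes. None of the 10 had all mimic arrays above all controls, beside 2.94% of all genes. The median difference over the 10 members was -0.09 with miR-4728-3p and 0.22 with miR-1, beside -0.02 and -0.01 over all genes tested. A single call is the smallest share above 0 that a list of 10 genes can give.

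The wider heat-inducible list holds 33 genes that HSF1 is known to activate, 9 of them members. It was chosen with earlier results of these data known, so its counts and calls are a description, also for genes that are not members. Of its 24 genes that are not members, 21 were tested in the miR-1 experiment, of which 2 rose and 0 fell, beside 1.45% and 1.24% of all genes. Their median was 0.06, beside -0.01 over all genes. At an unadjusted p under 0.05 by limma, 6 were higher and 1 was lower, beside 7.19% and 8.35% of all genes. DNAJB4, a J-domain partner of HSP70, read 7.44 to 7.61 in the controls and 7.84 to 8.10 with miR-1, with no overlap and a difference of 0.49 (SE 0.08, adjusted p 0.0049 by limma). HSPB8, the small heat shock protein that acts with BAG3, was near the filter of 6.17 and read 6.35 to 6.59 against 6.78 to 6.95. Its difference of 0.39 (SE 0.08, adjusted p 0.0195 by limma) lost the call without control array 2, 3 or 4 or mimic array 4, with adjusted p-values of 0.0259 to 0.0733. In the miR-4728-3p experiment DNAJB4 differed by 0.19 (adjusted p 0.432) and HSPB8 by -0.18 (adjusted p 0.485). Of the same 24 genes 22 were tested there, and 1 rose and 0 fell, beside 3.94% and 3.8% of all genes. Their median was -0.03, beside -0.02. At an unadjusted p under 0.05 by limma, 1 was higher and 2 were lower, beside 8.1% and 11.2% of all genes. A single gene of 22 is about the background share.

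The gene that rose there was DNAJA1, a J-domain protein of the cytosol. Its mimic arrays read 13.30 to 13.65 and its controls 12.88 to 13.16, with no overlap. The difference was 0.43 (SE 0.10, adjusted p 0.0048 by limma), 1.35-fold. With miR-1 DNAJA1 differed by 0.35 (SE 0.12, adjusted p 0.208), with mimic array 2 at 11.81 inside the control range of 11.58 to 11.92.

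**Figure D4:**
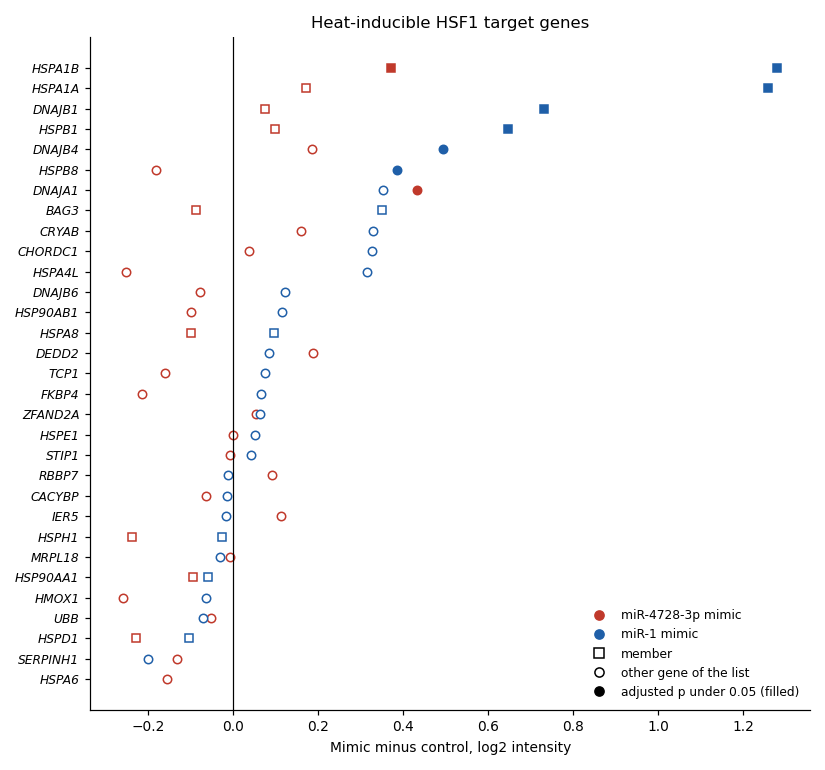
Mimic minus control in log2 intensity (x axis) of the heat-inducible HSF1 target genes tested in at least 1 experiment (y axis, ordered by the miR-1 difference), red for miR-4728-3p and blue for miR-1. Squares are members and circles other genes of the list, and filled symbols passed an adjusted p of 0.05. Of the 30 genes tested with miR-1, 6 are filled, all to the right of 0, and HSPA6 was tested with miR-4728-3p alone. The members were chosen with the miR-1 values known, so their filled miR-1 squares are a description. The other genes of the list were also chosen with earlier results of these data known, so their symbols are a description too.

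Across the families, the lists were chosen with earlier results of these data known, so their counts are a description. Those with miR-1 also include the members, of which HSPA1A and HSPA1B were chosen because they rose. They were 2 of 13 tested HSP70 and HSP110 genes higher (only HSPA1A and HSPA1B themselves), 2 of 24 J-domain co-chaperones (the member DNAJB1, and DNAJB4) and 2 of 4 small heat shock proteins (the member HSPB1, and HSPB8), and 0 lower in each. The medians of these lists were -0.01, 0.02 and 0.36. The small heat shock proteins and heat-inducible genes share these members with the list above. None of the 4 HSP90 genes, 11 BAG family and other exchange factors, 15 HSP90 co-chaperones, 10 chaperonins or 17 ER chaperones and unfolded protein response genes was called by limma in either direction. At an unadjusted p under 0.05 these lists held 1, 0, 1, 0 and 2 lower genes and 0, 3, 2, 0 and 0 higher genes, beside 8.35% lower and 7.19% higher of all genes. Over all lists without the members, 93 genes were tested, 2 were called higher and 0 lower with miR-1, beside 1.45% and 1.24% of all genes.

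With the miR-4728-3p mimic, the 97 tested genes of all lists without the members gave 1 higher call (DNAJA1) and 2 lower calls, beside 3.94% and 3.8% of all genes. HSPA12A, a distant member of the HSP70 family, had mimic arrays at 6.87 to 7.51 and controls at 7.88 to 8.07, with no overlap. The difference was -0.67 (SE 0.10) with an adjusted p of 9.16e-05 by limma. HSF2BP, named for its binding to the transcription factor HSF2, differed by -0.39 (SE 0.11, adjusted p 0.0264 by limma), with overlapping groups of 8.64 to 9.23 and 9.09 to 9.43. Its call ended without mimic array 3, 5 or 6 or control array 6, with adjusted p-values of 0.005 to 0.0767. With miR-1 HSPA12A differed by -0.23 (adjusted p 0.307) and HSF2BP by 0.30 (adjusted p 0.117). None of the 10 chaperonins, 19 ER chaperones and unfolded protein response genes, 15 HSP90 co-chaperones, 10 BAG family and other exchange factors, 4 small heat shock proteins and 4 HSP90 genes was called by limma. At an unadjusted p under 0.05 they held 2, 1, 2, 1, 0 and 0 lower genes and 0 higher genes each, beside 11.2% lower and 8.1% higher of all genes.

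HSF1, the main transcription factor of the heat shock response, differed by 0.10 with miR-1 (SE 0.09, 95% interval -0.11 to 0.30, adjusted p 0.767 by limma). With miR-4728-3p it differed by 0.00 (SE 0.12, 95% interval -0.24 to 0.24, adjusted p 0.997), a value whose sign turned under other processing. The arrays measure its transcript and not its activity, which changes after translation. HSP90AB1, the constitutive HSP90 of the cytosol, differed by 0.11 with miR-1 (adjusted p 0.669) and by -0.10 with miR-4728-3p (adjusted p 0.678). HSPA6, an HSP70 that is expressed almost only under strong stress, was below the filter in the miR-1 experiment, and differed by -0.16 with miR-4728-3p (adjusted p 0.537). HSF2 had no probe named in the annotation used here.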

How the data were processed

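Per the files, the authors deposited signal intensities of 48803 and 47323 probes before normalization, and a second table of intensities normalized on the BASE server by a method not given in the sources used here. Detection p-values and control probes were not used here. Starting from the unnormalized table, background was corrected by normexp with an offset of 50, arrays of an experiment were quantile normalized together, and log2 was taken (limma 3.58.1 under R 4.3.3). Probes brighter on average than the median log2 value (6.36 and 6.17) were tested with lmFit and eBayes, two-sided and adjusted by Benjamini and Hochberg over 20919 and 22031 probes. Each experiment was fitted apart, by the groups of the labels, and the number of arrays limits the precision. Gene names came from the platform annotation, in which 27578 and 30113 probes have 1 name, 13 and 8 several and 21212 and 17202 none. Probes with several names were not named.

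The members and the 11 gene lists were chosen with earlier results of these data known. Beside the members, each list could name up to 4 called genes, HSF1, HSF2 and HSP90AB1 were always named, and the 5 genes most like HSPA1A in each experiment. HSPA6 was named after its values were seen. Also tried were an offset of 16, the normalized table, uncorrected intensities, no filter or a filter at the 75th percentile, a replicate block, eBayes with trend and robust, array weights, other probes and leaving out each array. On simulated arrays, 52 of 100 probes changed by 0.5 and 84 of 100 changed by 1 were recovered for miR-4728-3p, with 11 false calls among 21246 probes. For miR-1 these were 59 and 80, with 11 false calls among 22237 probes. Promoter and miRNA sequences were taken from RefSeq tables on GRCh38.p14, in which all 10 members and both miRNAs matched. Figures used matplotlib 3.10.9, and tables pandas 2.3.3, in Python 3.11.15, and promoters were aligned with Biopython 1.88.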

Additional observations from a re-analysis of the deposited data

Results flagged for a closer look

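The value of HSPA1B in control array 2 of the miR-1 experiment, 9.96, stood apart from the other controls, of which the nearest was at 9.35 and the lowest at 9.26. The gap was 0.866 of the range of the group, above Dixon's critical value of 0.829 for 4 samples. It was the only one of 40 groups (10 members in 4 groups) set apart in this way, and chance alone sets apart about 1 in 20. HSPA1A read 9.90 on the same array, the highest of its controls.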

How the results depend on the processing

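With miR-4728-3p, the differences of the members kept their direction under all settings and array omissions run, except that the other HSP90AA1 probes gave 0.025 and 0.25 against -0.10 for the leading one. The dimmest HSPD1 probe, below the filter and not among these settings, gave 0.09 against -0.23 for the leading one. With miR-1, HSPA5 and HSPH1, both near 0, turned to -0.04 without mimic array 4 and to 0.06 without mimic array 3 (0.0022 without control array 3), an HSP90AA1 probe gave 0.02, 2 HSPD1 probes gave 0.01 and 0.09, and no other member changed sign. The miR-1 comparison chose the members, so the counts of members past the threshold in it are a description under every setting. Under eBayes with trend and robust they still numbered 4, with HSPA1A out and BAG3 in. An offset of 16 lowered the miR-1 calls over all genes from 147 lower and 173 higher to 83 and 99, and the lower calls of the chaperone lists with miR-4728-3p from 2 to 1, as HSF2BP reached an adjusted p of 0.0532. HSF1 with miR-4728-3p, near 0, turned to -0.0013 with the authors' values, -4.8e-05 without background correction and -0.0054 with array weights. As a description, the members that stood as higher with miR-1 numbered 4 to 5 under the other settings. Those of all lists, which include the members, numbered 5 to 8.

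Leaving out each array in turn gave 75 to 119 lower and 91 to 153 higher genes with miR-1 (lowest without control array 4), 0 to 1 higher members, 1 to 2 higher and 1 to 2 lower list genes with miR-4728-3p, and -0.085 to 0.051 for HSF1. The single-value difference of HSPA1A with miR-4728-3p was 0.13 to 0.22, with exact permutation p-values of 0.0152 to 0.0974. The cause of these changes was not tested, beyond the smaller number of arrays.

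Arrays that share a replicate number did not deviate together (correlations of -0.12 to 0.06 with miR-4728-3p and of -0.39 to 0.04 with miR-1). The main fit did not pair them. Whether they shared a culture or a transfection cannot be told from these correlations or from the labels. With the replicate number as a block, 37 genes were lower and 67 higher with miR-1, HSPB8 had an adjusted p of 0.101, and 348 were lower and 417 higher with miR-4728-3p. The block changed no other call of a gene named in the report.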

Other observations

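The HSPA1A probe had a mean raw intensity of 5353 in the controls of the miR-4728-3p experiment and 758 in those of the miR-1 experiment. For the HSPB1 probe these were 7063 and 6172. The leading probes of the other members were also brighter in the miR-4728-3p controls. Among them were HSPA1B (3454.5 and 752.5), BAG3 (3246.7 and 1111.5), HSPA5 (786.8 and 258.0), DNAJB1 (823.0 and 379.2) and HSPH1 (4266.3 and 3378.5). These come from different array versions and separate experiments of the same cell line, both with transfected controls, and the version, the experiment and the control oligonucleotide cannot be told apart.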
